A study of Mus musculus with 2 samples.

Results

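The microRNAs (miRNAs) miR-23, miR-27 and miR-24 are made from 2 gene clusters, Mir23a-Mir27a-Mir24-2 on chromosome 8 and Mir23b-Mir27b-Mir24-1 on chromosome 13. Their mature arms were taken by name from the deposited list, which gave 10 arms of 628 listed miRNAs: mmu-miR-23a-3p, mmu-miR-23b-3p, mmu-miR-27a-3p, mmu-miR-27b-3p, mmu-miR-24-3p and 5 rarer 5p arms. The prefix mmu, for mouse, is left out below. Each was measured in fibro-adipogenic progenitors (FAPs), mesenchymal cells of skeletal muscle that can become adipocytes or fibroblasts. The cells came from wild-type C57Bl/6 mice and were sorted as Sca1-positive; the sources used here do not give the age, sex or number of animals. They were expanded in DMEM that held FBS (20%), HS (10%) and FGF (5 ng/ml) until nearly confluent (80%), and then spent 24 h in basal medium (BM: DMEM with 10% HS) or in adipogenic differentiation medium (ADM), for which the labels give no recipe. The question is how the small RNA profile differs early after exposure to adipogenic medium.

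Each medium gave 1 library, so every difference below is between 2 libraries, with no replicate check and no p-value, and is not shown to belong to the media. The libraries held 755193 reads in BM and 790617 in ADM. Levels are in RPM, the percent of these totals times 10000, and intervals are 95% exact intervals that cover counting error only. In a bulk sample, fewer cells of a type and less RNA per cell cannot be told apart. Of miRNAs typical of mesenchymal cells and fibroblasts, all 7 names were present and together took 11.2% of BM and 12.1% of ADM reads. Of their 12 arms above 10 RPM, 3 were higher in ADM, beside 164 of all 337 miRNAs above 10 RPM. The median log2 ratio of these 12 arms was -0.24. The most abundant of them, miR-143-3p, took 2.86% of BM and 5.35% of ADM reads. The miRNAs typical of muscle cells summed to 3072 RPM in BM and 312 RPM in ADM over 7 arms, of which the 2 above 10 RPM were both over 2-fold lower in ADM. Nearly all of this sum was 1 arm, miR-133a-3p, with 2266 of 2320 reads in BM and 231 of 247 in ADM. Endothelial miR-126 summed to 117 and 257 RPM over 2 arms, epithelial miRNAs to 26.5 and 20.2 RPM over 4, neural miRNAs to 50.3 and 35.4 RPM over 4, and haematopoietic miRNAs to 1 and 4 reads over 2 (miR-142 and miR-223 were not analysed here). The part of these differences in the results below was not tested.

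A miRNA hairpin is cut into a 5p and a 3p arm, and the arm loaded into an Argonaute protein finds its targets mainly through the seed, bases 2 to 8. Hairpins of a cluster can be processed from a shared primary transcript, after which each mature arm has its own stability. miR-27a and miR-27b are known as inhibitors of adipocyte formation that repress Pparg, the master regulator of adipogenesis, and in muscle progenitors miR-27 represses Pax3. miR-23a is known for repressing the ubiquitin ligases of muscle atrophy, and miR-24 for promoting differentiation of mouse myoblasts.

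The mature sequences, credited to RefSeq on GRCm38.p6, are shown because seed and paralog identity decide which arms can be compared. Sequences were matched for 9 of the 10 arms, miR-23b-3p being named only. They are written 5′ to 3′ with the seed in capitals.
miR-23a-3p: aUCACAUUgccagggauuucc
miR-27a-3p: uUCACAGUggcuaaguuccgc
miR-27b-3p: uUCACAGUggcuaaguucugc
miR-24-3p: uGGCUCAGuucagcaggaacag
miR-24-2-5p: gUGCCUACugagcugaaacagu
miR-24-1-5p: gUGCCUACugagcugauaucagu
Positions are counted from 1 at the 5′ end. miR-27a-3p and miR-27b-3p share their seed and differ by 1 base, C19U, near the 3′ end of 21 bases. A read that ends before position 19 therefore matches both. The seeds of miR-23a-3p and miR-27a-3p differ by U7G, and miR-24-3p has an unrelated seed. miR-24-3p is identical from both hairpins, while miR-24-2-5p and miR-24-1-5p share their first 16 bases and differ after them, and so tell the hairpins apart.

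The hairpins of miR-27 and miR-24 show where these arms lie, with both arms in capitals.
Mir27a: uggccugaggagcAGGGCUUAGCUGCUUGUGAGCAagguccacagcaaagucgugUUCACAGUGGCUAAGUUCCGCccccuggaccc
Mir27b: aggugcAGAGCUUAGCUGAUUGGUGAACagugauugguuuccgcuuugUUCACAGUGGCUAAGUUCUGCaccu
Mir24-2: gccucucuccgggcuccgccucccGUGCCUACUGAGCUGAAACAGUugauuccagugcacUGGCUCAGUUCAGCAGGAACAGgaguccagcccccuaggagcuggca
Mir24-1: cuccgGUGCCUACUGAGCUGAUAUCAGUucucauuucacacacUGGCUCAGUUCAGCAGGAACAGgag
On chromosome 8 (GRCm38.p6, plus strand) the hairpins lie at chr8:84208518-84208592 (Mir23a), chr8:84208672-84208758 (Mir27a) and chr8:84208815-84208921 (Mir24-2), within 404 bp. Mir23a and Mir27a overlap no other annotated gene, and the end of Mir24-2 overlaps the start of the lincRNA Gm26532. On chromosome 13 (plus strand) they lie at chr13:63300484-63300557 (Mir23b), chr13:63300712-63300784 (Mir27b) and chr13:63301208-63301275 (Mir24-1), within 792 bp. All 3 are inside the aminopeptidase gene Aopep (2010111I01Rik in the annotation) on its own strand. Mir23b is in an intron, and Mir27b and Mir24-1 are each inside an exon of at least 1 annotated transcript. The gene Fancc spans all 3 on the opposite strand, as introns.

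**Figure D1:**
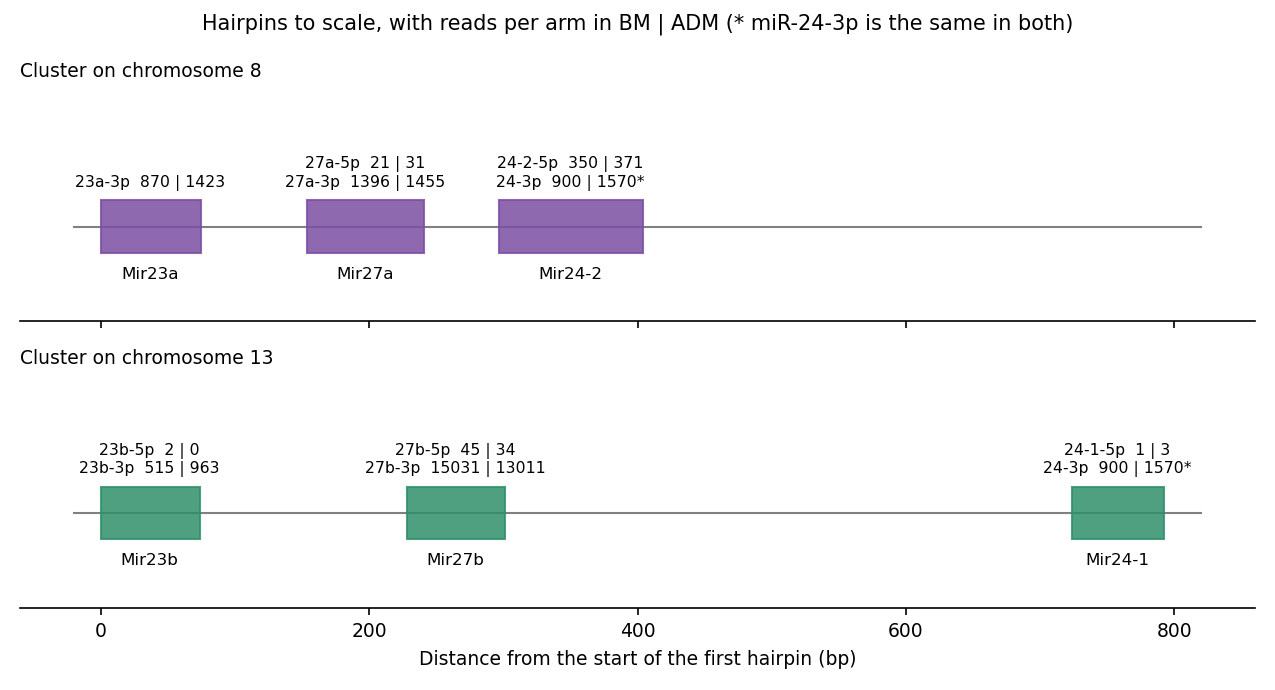
Hairpins of both clusters drawn to scale along the distance in bp from the start of the first hairpin; the text above each box gives reads in BM and ADM for each listed arm. Mir27b carried most reads, with 15031 and 13011 of its 3p arm, and miR-24-3p, marked with a star, cannot be assigned to a cluster.

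The clusters as a whole took a similar share of both libraries, but their members did not go the same way. miR-23a-3p, miR-23b-3p and miR-24-3p were 1.56-fold to 1.79-fold higher in the ADM library. miR-27a-3p was at nearly the same level in both, and the abundant miR-27b-3p was 1.21-fold lower in ADM. Of 10 listed arms, 8 had a mean of at least 10 RPM, and 0 of these 8 were 2-fold apart, where 105 of all 337 miRNAs above that minimum were (31.2%; 10.7% higher and 20.5% lower). At a lower bar of 1.5-fold, 3 of the 8 were higher in ADM (22.3% of all 337) and 0 were lower (30.9% of all). The counting interval left out a ratio of 1 for 4 of the 8, against 60.2% of all. The median log2 ratio, taken as log2((ADM + 1)/(BM + 1)) in RPM, was 0.25 over the 8 arms and -0.02 over all 337. The median of the members depended on the arms taken, at 0.64 for 3p arms only and 0.02 with paralogs summed.

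**Figure D2:**
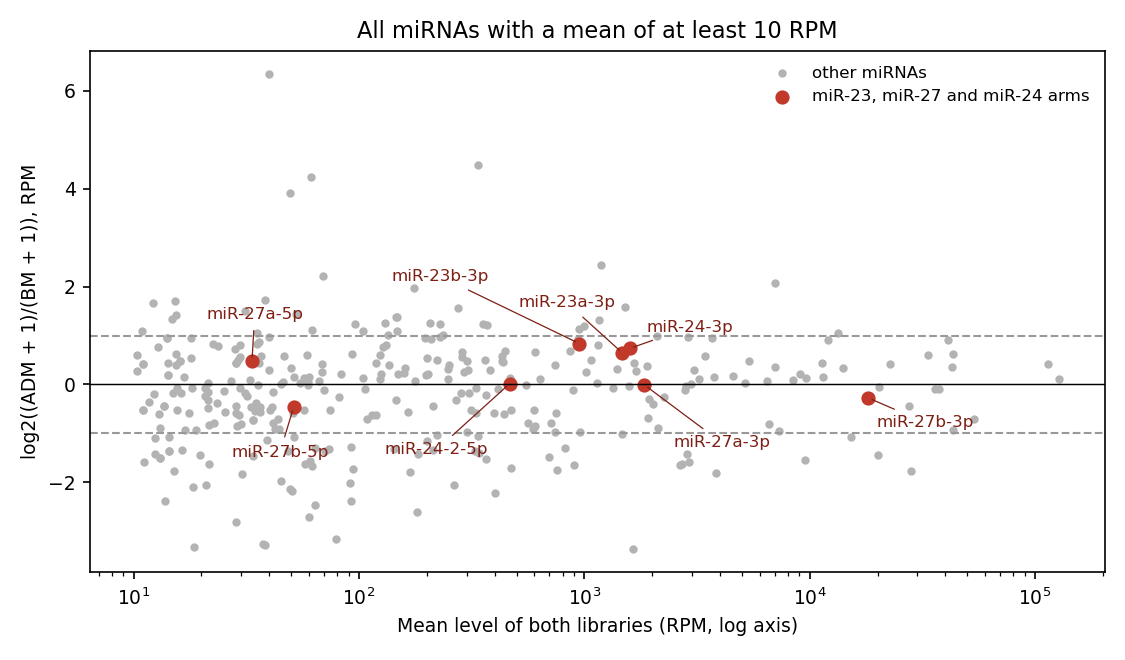
Mean level in RPM (log axis) against the log2 ratio of ADM over BM for 337 miRNAs, with the 8 arms of the miR-23, miR-27 and miR-24 clusters in red and dashed lines at 2-fold. All 8 lie between the dashed lines, with miR-23b-3p highest among the abundant arms at 0.84 and miR-27b-3p farthest to the right.

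miR-23a-3p had 870 BM reads and 1423 ADM reads, or 1152 and 1800 RPM. The ADM level was 1.56-fold higher (1.43 to 1.70; log2 ratio 0.64). Its paralog miR-23b-3p had 515 BM and 963 ADM reads, or 682 and 1218 RPM. The ADM level was 1.79-fold higher (1.60 to 1.99; log2 ratio 0.84), the largest difference among the arms above the minimum and still short of 2-fold. Together both took 0.183% of BM and 0.302% of ADM reads, a 1.65-fold difference (1.54 to 1.76). The opposite arm miR-23b-5p had 2 and 0 reads, under the floor of 3 counts in both libraries, so no fold is given. The floor of 3 counts is 3.79 RPM in ADM, and the 95% exact interval of the 0 count there ends at 0.000467% of reads.

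miR-27b-3p, the Pparg-repressing miRNA of chromosome 13, was read 15031 times in BM and 13011 times in ADM, or 19904 and 16457 RPM. Its share was 1.99% in BM (interval 1.96 to 2.02%) and 1.65% in ADM (interval 1.62 to 1.67%). The BM level was 1.21-fold higher (1.18 to 1.24; log2 ratio -0.27), a small difference that counting error alone does not cover. It ranked 16 of 628 in BM and 15 in ADM, far above every other arm of the clusters. miR-27a-3p had 1396 and 1455 reads, or 1849 and 1840 RPM, with a ratio of 0.996 (0.92 to 1.07). Its interval leaves out any difference above 1.1-fold from counting, in either direction. The 5p arms of miR-27 were rare. miR-27b-5p had 45 and 34 reads (ratio 0.72, 0.45 to 1.15) and miR-27a-5p had 21 and 31 (1.41, 0.78 to 2.58), so neither difference exceeded counting error.

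miR-24-3p had 900 BM reads and 1570 ADM reads, or 1192 and 1986 RPM. The ADM level was 1.67-fold higher (1.53 to 1.81; log2 ratio 0.74), close to both miR-23 members. miR-24-2-5p, the opposite arm from chromosome 8, did not follow, with 350 and 371 reads, or 463 and 469 RPM (ratio 1.01, 0.87 to 1.18). miR-24-1-5p, the opposite arm from chromosome 13, had 1 and 3 reads, at or under the floor of 3 counts in both libraries, so no fold between them is given.

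**Figure D3:**
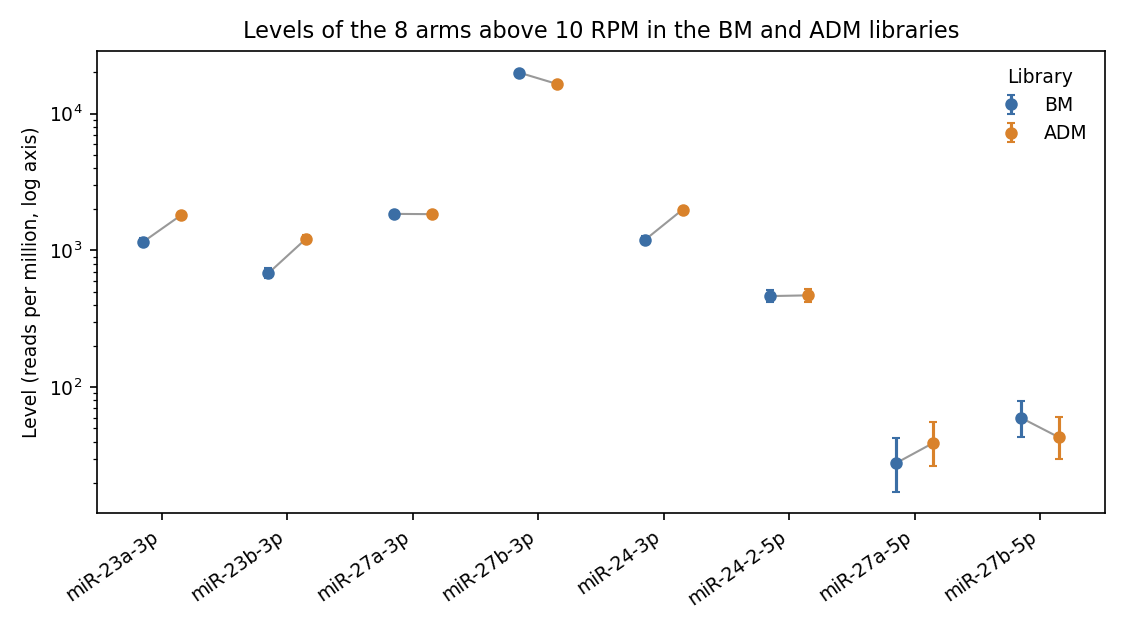
Level in RPM (log axis) of the 8 arms above 10 RPM in the BM (blue) and ADM (orange) library, 1 point per library, with 95% exact counting intervals. miR-27b-3p stands apart at 19904 and 16457 RPM, and lines join the same arm to show the higher ADM levels of miR-23a-3p, miR-23b-3p and miR-24-3p.

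In BM the order of levels was miR-27b-3p, miR-27a-3p, miR-24-3p, miR-23a-3p, miR-23b-3p and miR-24-2-5p, followed by the rare 5p arms of miR-27. Of these, miR-24-3p and miR-23a-3p did not differ beyond counting error, with a ratio of 1.03 (0.94 to 1.14). In ADM miR-24-3p stood above miR-27a-3p by 1.08-fold (1.004 to 1.16), and miR-27a-3p and miR-23a-3p were alike within counting error (ratio 1.02, 0.95 to 1.10). All arms are 21 to 23 bases long where a sequence was matched, so no length correction was made. Ligation efficiency of each sequence was not measured, so these orders describe reads.

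The scaling of the libraries moves the arms near 0 across it. With the trimmed mean of M values the median of all miRNAs shifted by -0.10 on the log2 scale, and miR-27a-3p came to -0.11 and miR-24-2-5p to -0.08. With median ratio scaling they came to 0.06 and 0.08, so no direction is given for either. miR-23a-3p (0.54 to 0.71), miR-23b-3p (0.73 to 0.90), miR-24-3p (0.63 to 0.80) and miR-27b-3p (-0.38 to -0.21) kept their side of 0 under both scalings.

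**Figure D4:**
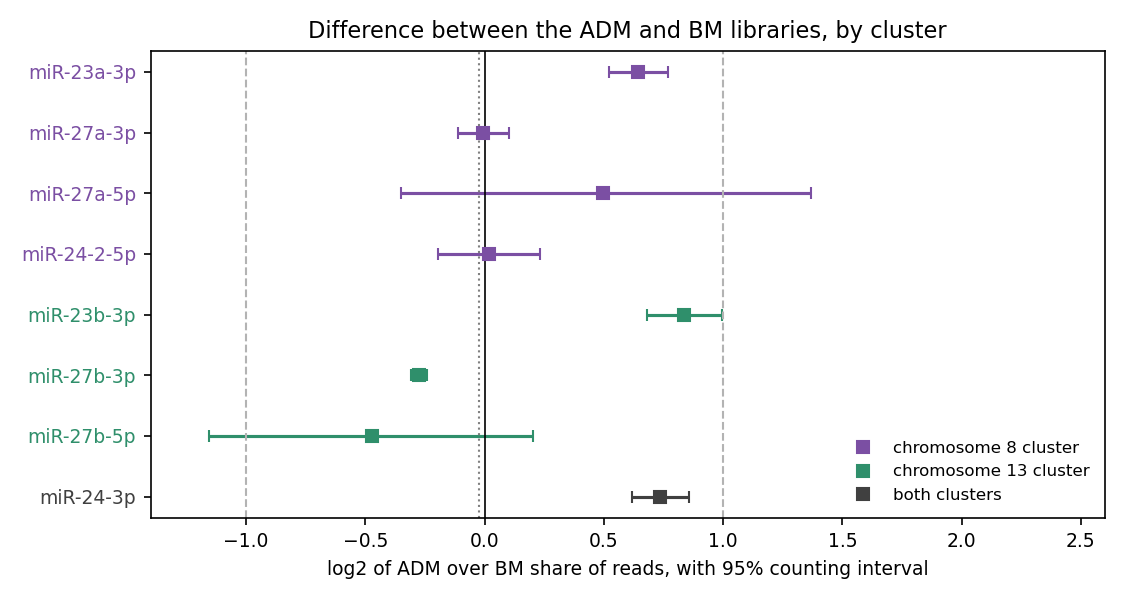
log2 of the ADM over the BM share of reads for 8 arms, grouped by cluster, with 95% exact counting intervals; the dotted line is the median of all miRNAs (-0.02) and dashed lines mark 2-fold. Both miR-23 members and miR-24-3p lie to the right of 0 with their whole interval, miR-27b-3p to the left, and the intervals of miR-27a-3p, miR-24-2-5p and the 5p arms of miR-27 cross 0.

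Ratios taken inside a library do not depend on how libraries are scaled, and they show the divergence of miR-27 from its neighbours directly. In the chromosome 8 cluster, miR-27a-3p had 1.60 reads for each read of miR-23a-3p in BM (1.47 to 1.75) and 1.02 in ADM (0.95 to 1.10). The ratio was thus 1.57-fold lower in ADM, a log2 difference of -0.65 (counting interval -0.81 to -0.49). In the chromosome 13 cluster, miR-27b-3p had 29.2 reads for each read of miR-23b-3p in BM (26.7 to 31.9) and 13.5 in ADM (12.7 to 14.4). That ratio was 2.16-fold lower in ADM, a log2 difference of -1.11 (-1.27 to -0.95). miR-24-3p kept step with miR-23: it had 0.65 reads for each read of both miR-23 members in BM (0.60 to 0.71) and 0.66 in ADM (0.62 to 0.70), a log2 difference of 0.02 (-0.13 to 0.17).

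Such gaps between close hairpins were common in these libraries. Over 69 other pairs of hairpins within 1000 bp on 1 strand, each represented by its most abundant arm above the minimum, the median gap in log2 ratio was 0.66 (quartiles 0.32 and 1.11). Of these pairs, 17 had a larger gap than miR-23b-3p and miR-27b-3p (1.11), and 35 a larger gap than miR-23a-3p and miR-27a-3p (0.65). The pairs share hairpins, and 28 of them lie on chromosome 12, so they are a description and not independent.

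The paralogs compare the clusters arm by arm, and the pairs did not give 1 common balance of the clusters. miR-23b-3p had 0.59 reads per read of miR-23a-3p in BM (0.53 to 0.66) and 0.68 in ADM (0.62 to 0.73), with a log2 difference of 0.19 whose interval (-0.003 to 0.39) includes 0. miR-27b-3p had 10.8 reads per read of miR-27a-3p in BM (10.2 to 11.4) and 8.94 in ADM (8.47 to 9.45), a log2 difference of -0.27 (-0.38 to -0.16). The rare miR-27b-5p had 2.14 reads per read of miR-27a-5p in BM (1.25 to 3.79) and 1.10 in ADM (0.65 to 1.85). The log2 difference of these 5p arms was -0.97, with an interval (-1.99 to 0.06) that includes 0. So by 3p arms the chromosome 8 member was the more abundant miR-23 in both libraries. The chromosome 13 member was by far the more abundant miR-27 by 3p arms, also in both libraries. No source used here says how reads that match both paralogs were assigned, and its part in these ratios was not tested. With paralogs summed, the miR-27 3p arms were lower in ADM (2.18% of BM and 1.83% of ADM reads; ratio 0.84, 0.82 to 0.86), while summed miR-23 was higher, as given above. The 5p arms of miR-24 differed most between clusters: in BM miR-24-2-5p had 350 reads against 1 of miR-24-1-5p, and in ADM 371 against 3.

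**Figure D5:**
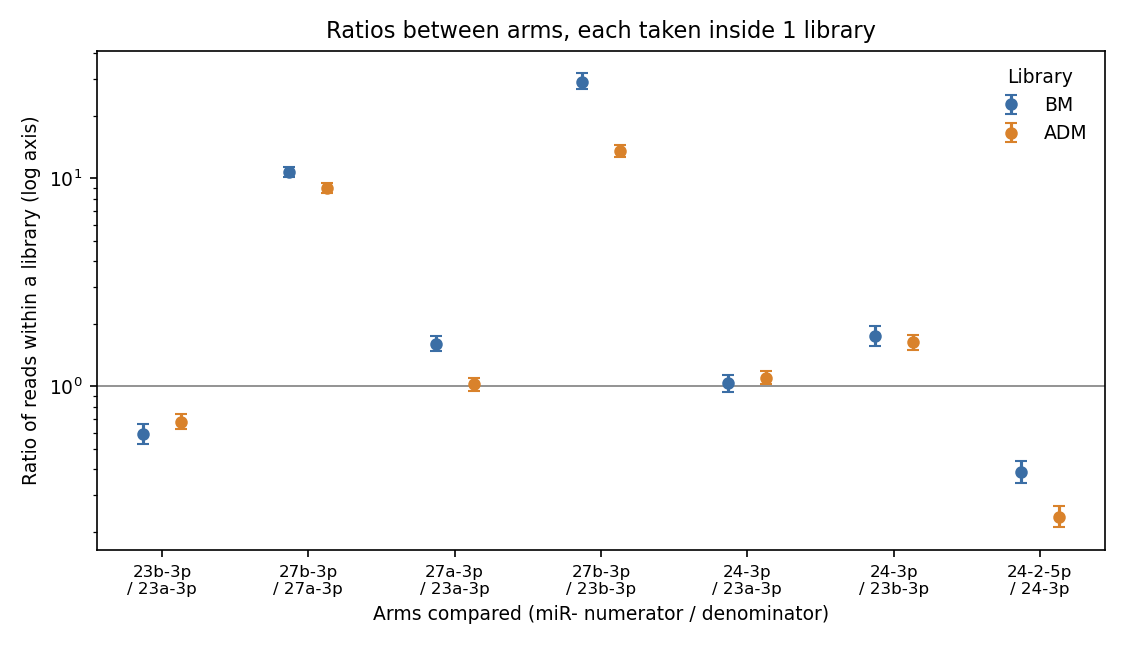
Reads of 1 arm per read of another inside the BM (blue) and the ADM (orange) library, on a log axis with 95% exact counting intervals and a line at 1. Both ratios of miR-27 to miR-23 and the ratio of miR-24-2-5p to miR-24-3p are lower in ADM, while both ratios of miR-24-3p to miR-23 members have overlapping intervals.

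The 3p arm was the more abundant one of miR-23b, miR-27a, miR-27b and miR-24, the hairpins with both arms listed; miR-23a-5p was not analysed here. miR-27b-3p had 334 reads for each miR-27b-5p read in BM (250 to 458) and 383 in ADM (274 to 553). miR-27a-3p had 66.5 per miR-27a-5p read in BM (43.3 to 108) and 46.9 in ADM (32.9 to 69.3). For miR-24 the arms were closer, with 2.57 reads of miR-24-3p per read of miR-24-2-5p in BM (2.27 to 2.92) and 4.23 in ADM (3.78 to 4.75). The difference of log2 ratios between the arms, 5p minus 3p, was -0.72 for miR-24-2 (-0.96 to -0.48). It was 0.50 for miR-27a (-0.30 to 1.31) and -0.20 for miR-27b (-0.84 to 0.45), both within counting error. Among 97 other pairs of arms above the minimum, 33 differed by more than miR-24-2, with a median difference of 0.54 in size. Since miR-24-3p is the sum of both hairpins, its share from chromosome 8 cannot be read from these data.

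By number of reads, miR-27b-3p alone made up most of the clusters. All 10 arms took 2.53% of the BM library (interval 2.50 to 2.57%) and 2.39% of the ADM library (interval 2.35 to 2.42%), a ratio of 0.94 (0.92 to 0.96). Without miR-27b-3p the other 9 took 0.543% and 0.740%, a ratio of 1.36 (1.31 to 1.42), so the direction of the sum rests on this arm. Of the reads in the clusters, the miR-27 seed held 85.9% in BM and 76.7% in ADM, the 3p arms of miR-23 7.24% and 12.7%, and miR-24-3p 4.70% and 8.32%.

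Among 514 listed miRNAs with a matched sequence, no other miRNA had the seed of miR-23a-3p, miR-27 or miR-24-3p. The paralog miR-23b-3p had no matched sequence and was therefore not part of this comparison. miR-128-3p, a miRNA abundant in neurons, comes close: its first 8 bases, UCACAGUG, are bases 2 to 9 of miR-27a-3p and miR-27b-3p, 1 position off.
miR-128-3p: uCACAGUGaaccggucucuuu
It had 358 BM and 145 ADM reads, or 474 and 183 RPM, and was 2.58-fold lower in ADM (2.13 to 3.16). The hairpins of miR-3074 overlap those of miR-24 on the opposite strand, and miR-3074-5p is complementary to 20 bases of miR-24-3p.
miR-3074-5p: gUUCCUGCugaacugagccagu
It had only 2 and 4 reads, and miR-3074-1-3p 1 and 2.

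For each abundant 3p arm, the 3 miRNAs nearest in level and difference were found by Euclidean distance in log2(RPM + 1) over both libraries, among 170 other miRNAs of at least 100 RPM. miR-23b-3p lay nearest to miR-19b-3p (distance 0.08), then miR-145a-5p (0.21) and miR-210-3p (0.23). miR-23a-3p and miR-24-3p had the same nearest 3, miR-301a-3p (0.24 and 0.36), miR-196b-5p (0.31 and 0.26) and miR-181b-5p (0.41 and 0.37). miR-27a-3p lay nearest to miR-214-3p (0.22), miR-181b-5p (0.27) and miR-148b-3p (0.27). miR-27b-3p had let-7i-5p as nearest (0.29), with miR-191-5p (0.66) and miR-16-5p (0.68) farther off.

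Of 49 listed arms of 25 miRNAs reported to inhibit adipogenesis, the miR-27 arms included, 38 were above the minimum, with 5 at least 2-fold higher in ADM, 5 lower and 28 neither, where 10.7% of all 337 miRNAs were higher and 20.5% lower. Their median log2 ratio was 0.09, which turned to -0.01 under scaling by the trimmed mean of M values and was 0.15 under median ratio scaling. It ran from miR-540-3p, with 498 and 112 reads, to miR-138-1-3p, with 0 and 63, and the most abundant, let-7f-5p, took 3.73% and 4.79% of reads. Of 35 arms of miRNAs reported to promote adipogenesis, 8 were higher (4 under the first of these scalings and 11 under the second), 1 was lower and 26 were neither, with a median of 0.60, beside the same 10.7% and 20.5% of all. There miR-21a-5p was most abundant, miR-146b-5p had the largest log2 ratio (2.08) and miR-204-5p the smallest (-1.72). Of 6 arms above the minimum of miRNAs studied in muscle mass and satellite cells beside miR-23a and miR-27, 4 were lower in ADM (20.5% of all 337), 0 higher (10.7% of all) and 2 neither, with a median of -1.49. The lowest was miR-133a-3p, with 2266 and 231 reads, and the highest miR-29b-3p, with 141 and 171. The most abundant, a row that miR-486-5p shares with miR-3107-5p, had 4509 and 1342. The 4 lower arms were miR-133a-3p, miR-133b-3p, this row and miR-486-3p. Both miR-133 arms are those already given for muscle cells, so they are not a separate observation.

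In the authors' deposited table the ratio of ADM to BM is 1.79 for miR-23b-3p, 1.67 for miR-24-3p, 1.56 for miR-23a-3p, 0.996 for miR-27a-3p and 0.83 for miR-27b-3p. The authors' deposited table gives 0.24 for miR-23b-5p, which rests on the replacement of 0 by 0.5 read.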

How the data were processed

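The authors deposited, for every mature miRNA, the percent of a library's reads; the sheet name, per the file headers, credits miRanalyzer. The submitters' processing notes name mm10. No source used here gives the filters or the treatment of multi-mapping reads. In a second deposited table, each 0 percent is replaced by 0.5 read, the ratio is ADM over BM percent, and the log2 column is the log2 of that ratio.

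Every percent was a whole multiple of its column's smallest value above 0 (tolerance 0.001 read), taken as 1 read, worth 1.32 RPM in BM and 1.26 RPM in ADM. Reads outside the listed miRNAs (679 and 807) stayed in the totals. Ratios of shares have exact conditional (Clopper-Pearson) intervals, and differences between ratios normal counting intervals. Without molecular identifiers, reads are not independent molecules. A pseudocount of 1 RPM, a mean of at least 10 RPM and a 2-fold threshold were used for calls. With 1 library per medium no test was run. Code was tested on simulated libraries. Python 3.11.15, numpy 2.4.6, pandas 2.3.3 and scipy 1.17.1 were used. The 10 arms and the lists were chosen with earlier results of these data known. Named miRNAs were all arms of the clusters and of miR-3074, miR-128-3p and the nearest 3 by level. From each list outside the cell types, the most abundant arm and both extremes were named. Arms at least 2-fold lower were also named for the list of muscle mass and satellite cells and for the further list of paralogs. Of the cell type lists, single arms were named for mesenchymal and muscle cells. The 5p arms of miR-128, with at most 8 reads, were left out. Hairpin positions are from RefSeq and host genes from GENCODE M21, both on GRCm38, the assembly of mm10.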

Additional observations from a re-analysis of the deposited data

How the results depend on the processing

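No paired analysis was possible because each medium has 1 library; leaving out a library was not possible for the same reason. Of 78 alternatives, 58 stayed within 1.5 times the count or within the counting interval of the value, and 0 turned a call around. As 0 of 8 member arms were called 2-fold apart, no such member call could be turned around. Cluster ratios taken from the authors' ratio column could only return the main value. The arms miR-27a-3p and miR-24-2-5p changed sign between scalings, as given above, and still count as staying within the interval. The count of member arms at least 2-fold apart was 0 with a pseudocount of 10 RPM, either other scaling, a minimum of 100 RPM, summed paralogs or a 3-fold threshold. It was 2 with no minimum, where miR-23b-5p and miR-24-1-5p enter with 0 to 3 reads, and 3 at 1.5-fold. Over all miRNAs it was 105, against 289 with no minimum, 50 with a minimum of 100 RPM, 179 at 1.5-fold and 47 at 3-fold. The share of higher among these was 34.3%, 45.3% with no minimum, 42.0% with a minimum of 100 RPM, 41.9% at 1.5-fold, 25.5% at 3-fold, 26.9% with the trimmed mean of M values, 40.5% with median ratio scaling and 32.5% with a pseudocount of 10 RPM. The members' median of 0.25 became 0.64 for 3p arms only and 0.02 with paralogs summed, within a wide counting limit of 0.41 set by rare 5p arms. The set of 3p arms holds none of these 5p arms, so its place among those that stayed says little. Outside the 12 miRNAs that are among the 10 most abundant of either library, the clusters took 6.68% of BM and 6.54% of ADM reads. Without miR-27b-3p, an alternative chosen after seeing the data, they took 0.543% and 0.740%; without both miR-27b arms, also chosen then, the median was 0.56. Reads of miR-27 per read of miR-23, 11.9 in BM and 6.06 in ADM with paralogs summed, were 1.60 and 1.02 on chromosome 8 and 29.2 and 13.5 on chromosome 13. Reads of miR-24-3p per read of miR-23a-3p were 1.03 and 1.10, and per read of miR-23b-3p 1.75 and 1.63. Depth left no fold for miR-23b-5p and miR-24-1-5p; among arms above the minimum, it limits the 5p arms of miR-27 most, with ratio intervals of 0.45 to 1.15 and 0.78 to 2.58 at 21 to 45 reads.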

Other observations

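A further list held 16 arms above the minimum from other clustered or paralogous miRNAs: miR-29, miR-181, miR-199, miR-214, miR-221 and miR-222. Among them, miR-221 and miR-222 lie 504 bp apart on chromosome X and are not copies of 1 cluster at another locus. Of the 16 arms, 4 were at least 2-fold lower (20.5% of all 337 miRNAs), 0 higher (10.7% of all) and 12 neither. The 4 lower arms were miR-221-5p, miR-222-3p, miR-222-5p and miR-199b-5p. The median log2 ratio of the list was -0.41 (-0.51 when scaled by the trimmed mean of M values, -0.35 when scaled by median ratios). The row of miR-199a-3p and miR-199b-3p was most abundant, with 3.17% of BM and 2.33% of ADM reads. miR-181b-5p had the largest log2 ratio (0.28), and miR-221-5p, with 412 and 150 reads, the smallest (-1.52).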
